A study of Homo sapiens with 6 samples.

Results

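The 8 genes of the E2F family of transcription factors (E2F1 to E2F8) were followed in HCT116 cells, a human colorectal carcinoma line with a wild-type p53 response, while p53 was activated. They were taken by gene symbol from a table of 57905 genes, and all 8 were among the 16565 genes with enough counts to be tested. RNA was sequenced from cells given the vehicle DMSO (Nut 0h) and from cells given 10 µM Nutlin-3a for 1 h (Nut 1h) or 10 h (Nut 10h), as 2 biological replicates of each, which gives 6 libraries. Nutlin-3a keeps the inhibitor MDM2 from binding p53 and thereby activates p53 without DNA damage. All groups are 1 cell line in culture, and a single vehicle group served as the control for both times, so that effects of time in culture and of Nutlin-3a cannot be told apart.

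E2F proteins bind the promoters of genes for DNA replication and the cell cycle. E2F1, E2F2 and E2F3 activate them and are held inactive by the retinoblastoma protein RB until cyclin-dependent kinases (CDKs) phosphorylate it. E2F4 and E2F5 mostly repress, with the RB relatives p107 and p130 and as part of the DREAM complex. E2F6 works with Polycomb group proteins and binds no RB family member, and E2F7 and E2F8 are atypical repressors that bind DNA without the DP partner that the other E2F proteins need. Activated p53 induces CDKN1A (p21), an inhibitor of CDKs, and in dividing cells this keeps RB and its relatives active. E2F1, E2F2, E2F3, E2F7 and E2F8 are themselves E2F target genes, and E2F7 is also known as a direct p53 target.

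RefSeq promoters (GRCh38.p14, 250 bases before to 50 after the start site) of 6 members (all but E2F5 and E2F8) were searched on both strands for the letters TTTCGCG and TTTGGCG, forms of the E2F binding site that do not overlap each other. Either one is present in 1120 of 35116 promoters (3.19%). E2F1 and E2F2 each held both, E2F3 held TTTCGCG in 1 of its 2 promoters, and the searched windows of E2F4, E2F6 and E2F7 held neither. A match is only a match of letters, and binding was not measured here. The 250 bases before the start site are given below for 3 members with such letters and for E2F7, the member called higher at 10 h, with the matched letters in capitals. They lie at chr20:33686386-33686635 (minus strand) for E2F1, chr1:23531234-23531483 (minus strand) for E2F2, chr6:20401629-20401878 (plus strand) for E2F3 and chr12:77065570-77065819 (minus strand) for E2F7.
E2F1: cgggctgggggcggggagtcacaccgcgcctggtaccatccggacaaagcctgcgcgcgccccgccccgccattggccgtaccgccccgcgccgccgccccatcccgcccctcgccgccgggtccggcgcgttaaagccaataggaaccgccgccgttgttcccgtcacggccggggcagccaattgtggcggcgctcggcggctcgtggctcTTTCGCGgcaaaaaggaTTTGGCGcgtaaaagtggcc
E2F2: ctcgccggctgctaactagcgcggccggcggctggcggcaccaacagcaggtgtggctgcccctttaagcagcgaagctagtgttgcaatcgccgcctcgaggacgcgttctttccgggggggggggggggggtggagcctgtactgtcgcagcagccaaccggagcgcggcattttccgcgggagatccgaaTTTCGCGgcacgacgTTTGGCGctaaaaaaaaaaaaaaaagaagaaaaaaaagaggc
E2F3: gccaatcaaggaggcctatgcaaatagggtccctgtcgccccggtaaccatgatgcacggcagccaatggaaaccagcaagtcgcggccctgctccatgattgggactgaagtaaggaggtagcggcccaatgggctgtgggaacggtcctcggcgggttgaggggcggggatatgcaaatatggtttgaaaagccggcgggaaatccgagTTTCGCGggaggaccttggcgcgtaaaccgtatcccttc
E2F7: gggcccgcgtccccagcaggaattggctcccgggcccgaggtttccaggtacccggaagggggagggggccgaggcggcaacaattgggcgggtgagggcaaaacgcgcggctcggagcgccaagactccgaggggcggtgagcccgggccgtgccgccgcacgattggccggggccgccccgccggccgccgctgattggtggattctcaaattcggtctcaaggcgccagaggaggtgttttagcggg

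In E2F1 the matched letters span positions -37 to -31 and -20 to -14 from the start site. In E2F2 they span -57 to -51 and -42 to -36, and in E2F3 -39 to -33. The E2F7 window held 4 copies of CCAAT, a motif of the factor NF-Y that is present in 34.6% of promoters. E2F3 also held 4 copies of it and E2F1 3. Of the 42 genes with a RefSeq promoter in a list of 50 G1/S target genes, 18 held TTTCGCG or TTTGGCG and 25 held CCAAT in their first listed promoter.

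Counts per library summed to between 26068076 and 35473485. Values below are normalized counts, which are counts divided by the library size as scaled by edgeR's TMM method and multiplied by the mean scaled size. Genes were called higher or lower where edgeR's quasi-likelihood test gave a Benjamini-Hochberg adjusted p, taken over all tested genes, of 0.05 or less. The line and the treatment were checked first. The epithelial genes EPCAM, KRT8, KRT18, KRT19, CDH1 and CDX2 were present in every library, while CEACAM5 and VIL1 did not exceed 11.6 and 9.66 normalized counts. Of 11 markers of other cell types, COL1A1 averaged 1364 normalized counts in the controls, 795.6 after 1 h and 1218 after 10 h, and none of the others exceeded 34.8 in any library. Of 8 p53 target genes, 6 were called higher and 1 lower at 1 h, beside 34.5% and 32.3% of all tested genes, and 8 higher at 10 h, beside 14.1%. The fit with the GC-content offset described below gave 5 higher and 0 lower at 1 h, beside 23.1% of all tested genes each way. MDM2 rose 4.56-fold at 1 h (edgeR adjusted p = 3.55e-08; log2 2.19, or 1.53 with the offset) and 13.4-fold at 10 h (edgeR adjusted p = 4.51e-10). CDKN1A was at 1.03-fold of its control at 1 h (edgeR adjusted p = 0.704; log2 0.73 with the offset, edgeR adjusted p = 1.02e-06) and rose 14.3-fold at 10 h (edgeR adjusted p = 1.03e-10). GDF15 fell to 0.394 of its control at 1 h (edgeR adjusted p = 3.31e-07; log2 -1.35, or -0.15 with the offset, edgeR adjusted p = 0.0806) and rose 8.05-fold at 10 h (edgeR adjusted p = 7.65e-10).

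The Nut 1h libraries differed from the controls across the whole transcriptome. Of the tested genes, 66.9% were called at 1 h, 34.5% higher and 32.3% lower, and across genes the log2 fold change fell with the GC content of the longest transcript (Pearson r = -0.689 over 16137 genes, which are not independent replicates). At 10 h 29.0% were called and this correlation was -0.03. Mitochondrial counts made up 8.15% to 8.44% of the Nut 1h libraries, 4.99% to 6.18% of the Nut 0h libraries and 6.45% to 7.06% of the Nut 10h libraries. For this reason each 1 h value of a member is followed by its value from a fit that removes the smooth trend on GC content from every library (the GC-content offset). Leaving mitochondrial genes out of the scaling changed no member's call at 1 h.

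At 1 h, 5 of the 8 E2F genes were called higher and 2 lower, where 34.5% and 32.3% of all tested genes were. Under the GC-content offset 3 were higher (E2F2, E2F3 and E2F6) and 2 lower (E2F4 and E2F5), where 23.1% of all tested genes were called in each direction. At 10 h, 4 were called lower and 1 higher, where 14.9% and 14.1% of all tested genes were, and E2F1, E2F2 and E2F8 had fallen to between 0.152 and 0.201 of their control levels. The median log2 fold change of the 8 genes was 0.37 at 1 h and -0.29 at 10 h, beside 0.05 and 0.0002 for all tested genes, and the 1 h median was 0.10 with the offset. DESeq2 called 4 higher and 2 lower at 1 h (23.5% and 26.4% of the genes it gave an adjusted p), and 0 higher and 4 lower at 10 h (11.4% and 15.7%). Both comparisons use the same 2 control libraries and are given side by side. In bulk RNA, fewer cells in a phase of the cell cycle and less mRNA per cell cannot be told apart.

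**Figure D1:**
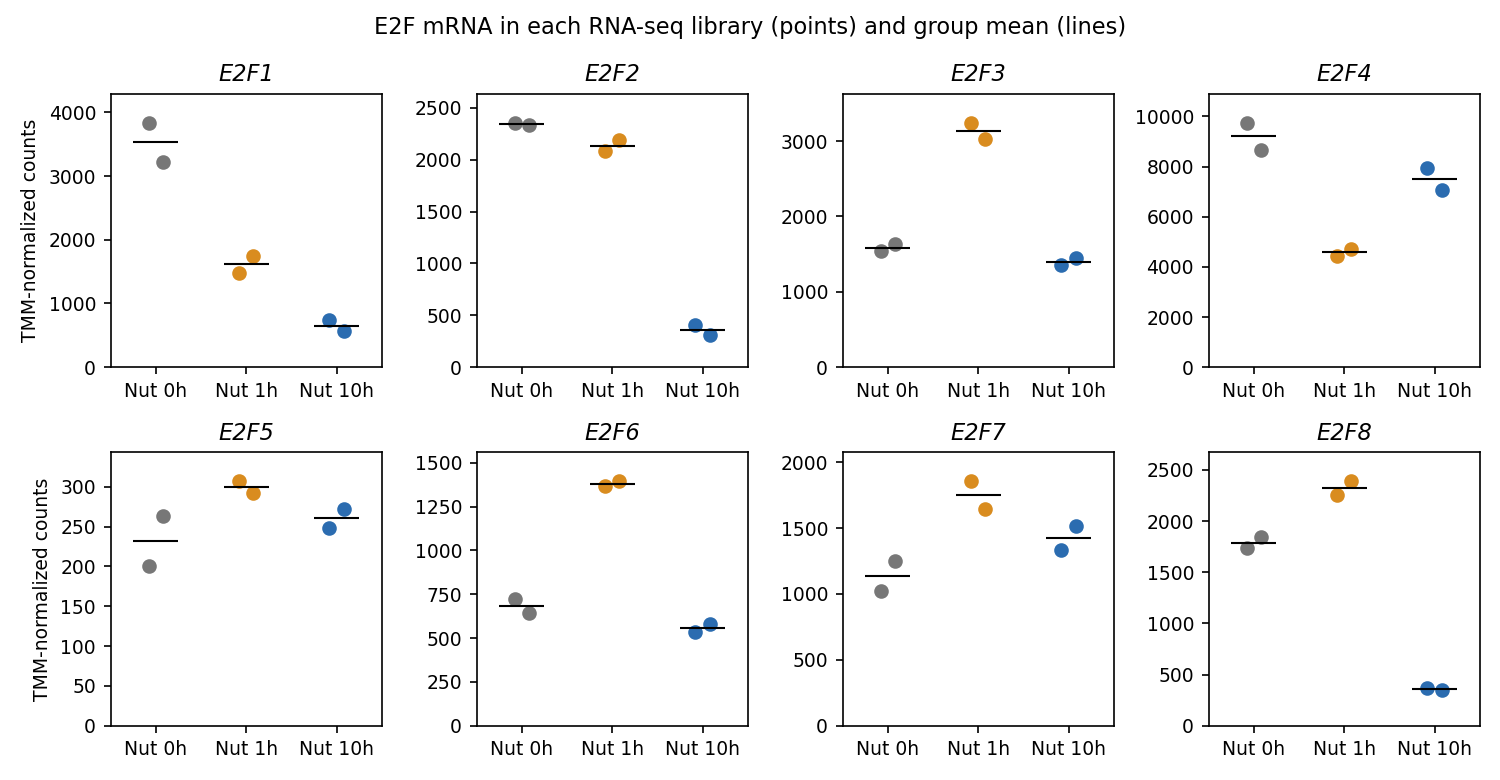
TMM-normalized counts (vertical axes, each from 0 and on its own scale) of the 8 E2F genes in the 2 libraries (points) of each condition, with group means as lines. E2F1, E2F2 and E2F8 end far below their controls at Nut 10h, E2F3 and E2F6 peak at Nut 1h, and E2F4 is lowest at Nut 1h.

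Among the activators, E2F1 fell at both times. This gene (ENSG00000101412, minus strand of chr20:32263283-32274191 in GRCh37) had 3836 and 3228 normalized counts in the controls, 1481 and 1743 after 1 h, and 738.6 and 563 after 10 h. The 3 groups did not overlap, and each later group lay below the one before. The decrease was 1.13 ± 0.13 (SE) on the log2 scale at 1 h (edgeR adjusted p = 4.57e-06) and 2.44 ± 0.14 at 10 h (edgeR adjusted p = 1.43e-08), to 0.184 of the control. With its GC content of 61.6%, E2F1 lay near its GC neighbours at 1 h, the 784 tested genes within 1 percentage point of GC having a median log2 fold change of -0.95. The GC-content offset took the 1 h change to -0.16 (edgeR adjusted p = 0.113), whereas the 10 h change was -2.39 with it.

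E2F2, the second activator, fell only in the 10 h comparison. In the 2 replicates of each condition it had 2355 and 2335 normalized counts in the controls, 2086 and 2186 after 1 h, and 402.2 and 312.7 after 10 h (ENSG00000007968, minus strand, chr1:23832930-23857725). Both Nut 1h values were just below the controls, and both Nut 10h values were far below. The log2 fold change of -0.13 ± 0.11 at 1 h did not pass (edgeR adjusted p = 0.283), while at 10 h E2F2 fell by 2.71 ± 0.12 on the log2 scale (edgeR adjusted p = 2.32e-09), to 0.152 of the control. This was the largest decrease among the 8 genes, and 0.0906% of all tested genes had a lower 10 h log2 fold change. With the GC-content offset the 1 h value of this gene (57.4% GC) turned to 0.50 and passed (edgeR adjusted p = 5.81e-05), so that its direction at 1 h depended on the offset.

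E2F3, the third activator, moved the other way at 1 h. It had 1541 and 1632 normalized counts in the controls, 3242 and 3031 after 1 h, and 1355 and 1444 after 10 h (ENSG00000112242, plus strand, chr6:20402110-20493945). The Nut 1h values stood above all others, and the Nut 10h values lay just below the controls. E2F3 rose 1.98-fold at 1 h (log2 0.98 ± 0.09, edgeR adjusted p = 9.56e-07) and kept a rise of 0.75 with the GC-content offset (edgeR adjusted p = 3.25e-07). At 10 h its change of -0.18 ± 0.09 did not pass (edgeR adjusted p = 0.17), but with the offset it was -0.21 and passed (edgeR adjusted p = 0.0225).

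E2F4, the main E2F of the DREAM complex, was the most abundant member per kb of exon in all 6 libraries. It had 9742 and 8678 normalized counts in the controls, 4450 and 4721 after 1 h, and 7938 and 7059 after 10 h (ENSG00000205250, plus strand, chr16:67226058-67232821). The Nut 1h values were well below the rest, and the Nut 10h values came back to just under the controls without overlapping them. At 1 h E2F4 fell by 1.01 ± 0.10 on the log2 scale (edgeR adjusted p = 1.35e-06), and by 0.22 with the GC-content offset (edgeR adjusted p = 0.00768, GC content 59.3%). At 10 h the decrease was 0.30 ± 0.10 (edgeR adjusted p = 0.0369). This call was lost without Nut 0h replicate 1, Nut 10h replicate 2 or either Nut 1h replicate, with adjusted p = 0.293, 0.288, 0.0829 and 0.0839 in edgeR.

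E2F5, the closest relative of E2F4, was the least abundant member per kb of exon in every library. Its counts were 200 and 262.9 (normalized) in the controls, 307 and 292 after 1 h, and 248.5 and 272.7 after 10 h (ENSG00000133740, plus strand of chromosome 8). The Nut 10h values overlapped the controls, and the Nut 1h values stood above both. The 1 h rise of 0.37 ± 0.15 was near the threshold (edgeR adjusted p = 0.0376), it did not pass with DESeq2 (adjusted p = 0.212), and with the GC-content offset it became a decrease of 0.35 on the log2 scale (edgeR adjusted p = 0.0287). The call was also lost without Nut 0h replicate 1 or either Nut 1h replicate (edgeR adjusted p = 0.352, 0.171 and 0.0941). At 10 h the change of 0.17 ± 0.15 did not pass (edgeR adjusted p = 0.425). E2F5 shares 3105 bases with RBIS on the opposite strand, which had 4852 counts over the 6 libraries, and since the strand setting of the counting is not given in the sources used here, E2F5 reads and RBIS reads may not be separated.

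E2F6, the Polycomb-linked member, was like E2F3 called higher at 1 h and not at 10 h. It was counted at 721.8 and 645.1 (normalized) in the controls, at 1365 and 1394 after 1 h, and at 536.6 and 582.5 after 10 h (ENSG00000169016, minus strand, chr2:11584501-11606303). The Nut 1h values stood above all others, and the Nut 10h values were below the controls. The rise at 1 h was 2.02-fold (log2 1.01 ± 0.10, edgeR adjusted p = 1.6e-06), and 0.65 remained with the GC-content offset (edgeR adjusted p = 1.89e-05). At 10 h the change of -0.29 ± 0.11 missed the threshold (edgeR adjusted p = 0.0557). It passed in 5 of 19 alternative settings, among them the offset at -0.31 (edgeR adjusted p = 0.011). RLE size factors gave -0.30 (edgeR adjusted p = 0.0494) and no low-count filter -0.34 (edgeR adjusted p = 0.036). Without Nut 0h replicate 2 the change was -0.37.

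The atypical repressors parted at 10 h. E2F7 had 1021 and 1250 normalized counts in the controls, 1855 and 1642 after 1 h, and 1337 and 1513 after 10 h (ENSG00000165891, minus strand, chr12:77415028-77459349). Both treated groups stood above the controls. The rise was 0.62 ± 0.12 at 1 h (edgeR adjusted p = 0.000317), and 0.17 with the GC-content offset (edgeR adjusted p = 0.0971). At 10 h it was 0.33 ± 0.12, or 1.25-fold, with an adjusted p of 0.04997 in edgeR, and it was the member called higher there. This call was lost in 12 of 19 alternative settings, among them DESeq2 (adjusted p = 0.0735) and the fits without Nut 0h replicate 1, Nut 10h replicate 2 or either Nut 1h replicate (edgeR adjusted p = 0.396, 0.167, 0.0971 and 0.0995), and the log2 fold change stayed between 0.19 and 0.48.

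E2F8, the other atypical repressor, had 1734 and 1843 normalized counts in the controls, 2253 and 2389 after 1 h, and 366.4 and 353.6 after 10 h (ENSG00000129173, minus strand, chr11:19245610-19263167). The groups were apart, with Nut 1h highest and Nut 10h lowest. E2F8 was higher at 1 h by 0.38 ± 0.09 on the log2 scale (edgeR adjusted p = 0.00261). That call was lost with the GC-content offset (0.03, edgeR adjusted p = 0.749) and without Nut 1h replicate 2 (0.33, edgeR adjusted p = 0.0515). At 10 h E2F8 fell by 2.31 ± 0.10 (edgeR adjusted p = 2.32e-09), to 0.201 of the control. The decreases of E2F1, E2F2 and E2F8 at 10 h kept their call in all 19 alternative settings, each within -2.90 and -2.24.

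**Figure D2:**
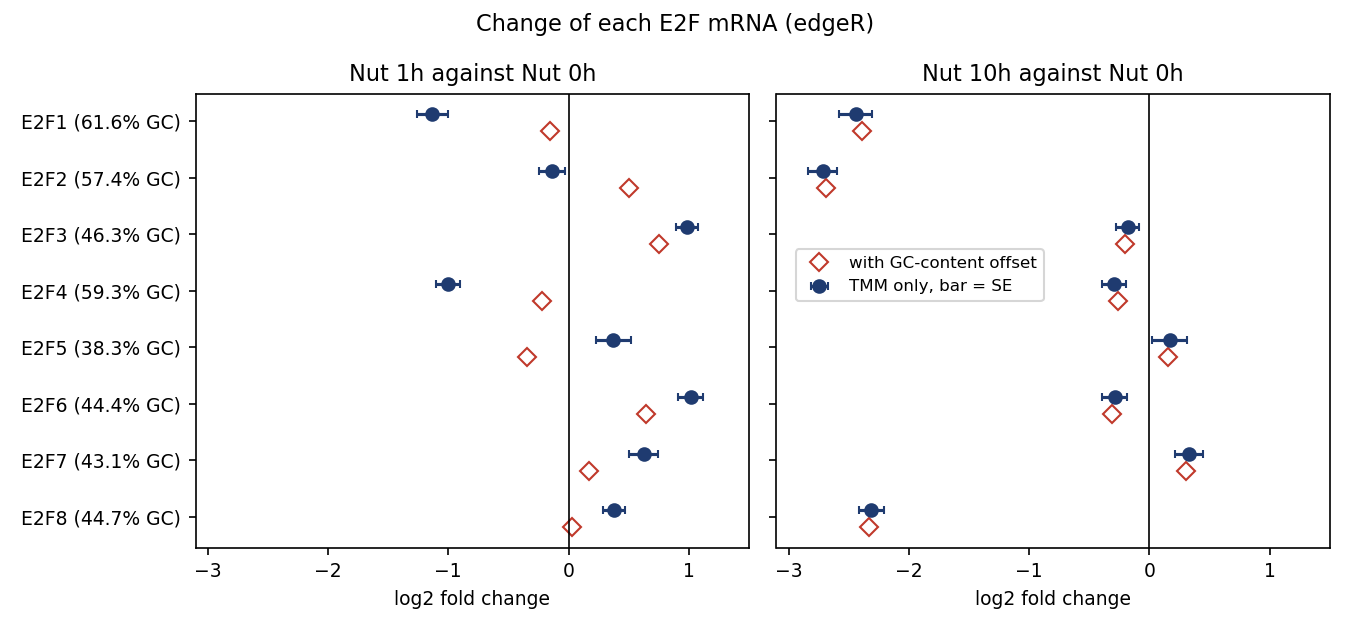
Log2 fold change of each E2F mRNA at Nut 1h (left) and Nut 10h (right) against Nut 0h, from edgeR (filled circles, bars are SE) and with the GC-content offset (open diamonds, no error drawn), with the GC content of the longest transcript beside each name. At 1 h the offset moves E2F1 from -1.13 to -0.16 and E2F2 from -0.13 to 0.50, and at 10 h the symbols of each gene lie close together.

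Set against genes of like GC content, the 1 h changes of the members spread on both sides. Tested genes within 1 percentage point of GC had a median log2 fold change of 0.27 around E2F3 and 0.39 around E2F6, and both members lay above these medians. The median was 0.74 around E2F5, 0.46 around E2F7 and 0.38 around E2F8, the last of which equalled the E2F8 value to 2 decimals. Around E2F4 it was -0.79 and around E2F2 -0.63. At 10 h the same medians lay between -0.05 and 0.04 for all 8 genes. The plot of change against GC content shows E2F1, E2F2 and E2F8 well below that flat trend.

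**Figure D3:**
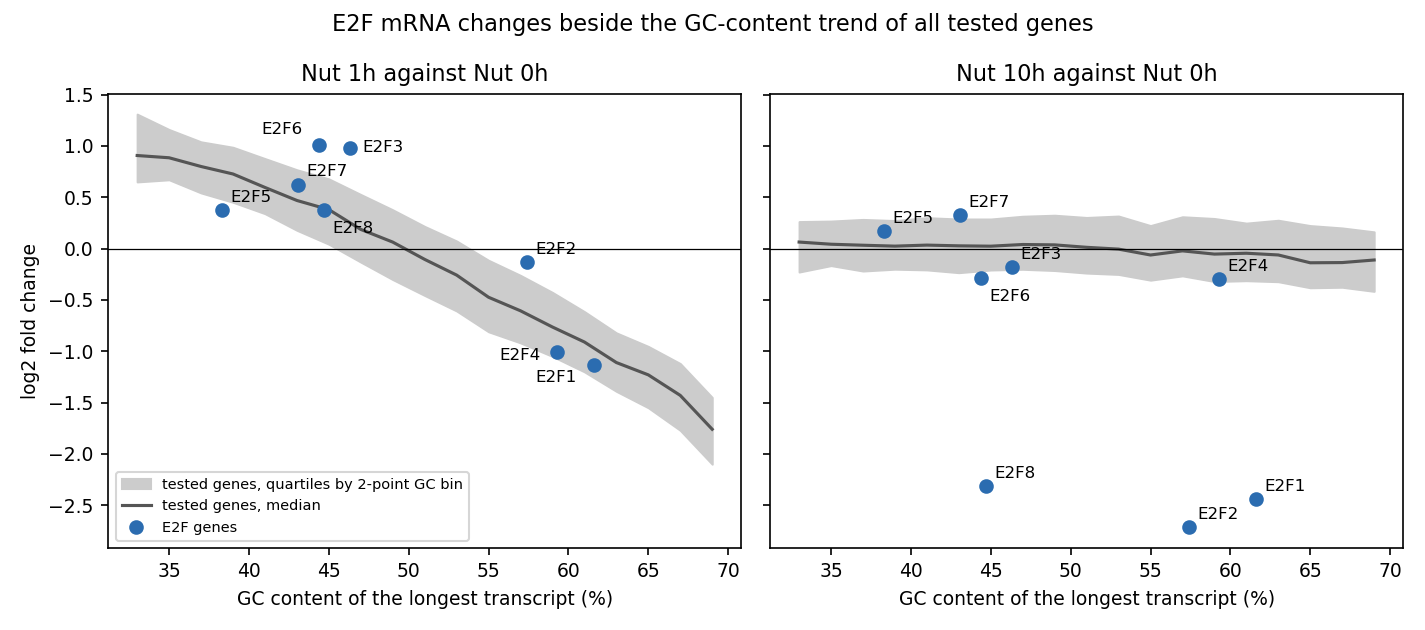
Log2 fold change (vertical axis) against GC content of the longest transcript in percent (horizontal axis) at Nut 1h (left) and Nut 10h (right), with the 8 E2F genes as points and all tested genes as median line and quartile band by bins of 2 percentage points. At 1 h E2F3, E2F6 and E2F2 lie above the falling band, E2F5 lies below it and the other members lie within it, and at 10 h E2F1, E2F2 and E2F8 lie at -2.44, -2.71 and -2.31 under a flat band.

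Between 1 h and 10 h, 6 of the 8 members fell and 1 rose, where 33.7% and 34.2% of all tested genes did (67.9% in either direction). The log2 fold change was -2.69 for E2F8 (edgeR adjusted p = 2.72e-10), -2.58 for E2F2 (8.65e-10), -1.31 for E2F1 (1.44e-06), -1.30 for E2F6 (1.19e-07) and -1.16 for E2F3 (1.24e-07). The GC-content offset took E2F1 to -2.23 and E2F2 to -3.19, which was then lower than E2F8 at -2.37, and left E2F6 and E2F3 at -0.96 each. E2F4 was the member that rose, by 0.71 (edgeR adjusted p = 2.3e-05), but with the GC-content offset its change was -0.04 (edgeR adjusted p = 0.61). E2F7 fell by 0.30 (edgeR adjusted p = 0.0359), a call lost with DESeq2 (adjusted p = 0.0917), without Nut 10h replicate 1 or without either Nut 1h replicate (edgeR adjusted p = 0.254, 0.28 and 0.057), and its offset value was 0.13 (edgeR adjusted p = 0.17). E2F5 did not pass at -0.20 (edgeR adjusted p = 0.232) and turned to 0.50 with the offset (edgeR adjusted p = 0.0021).

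Levels of different members were compared per length, as CPM (counts scaled to the TMM-scaled library size) per kb of merged exon. At Nut 0h E2F4 stood at 77.5 ± 6.33 (SD, n = 2) and E2F1 at 39.7 ± 4.84, followed by E2F8 at 13.1 ± 0.57 and E2F2 at 13 ± 0.08, which did not differ beyond their spread. E2F3 came next at 9.25 ± 0.38. E2F7 at 5.46 ± 0.78 and E2F6 at 5.09 ± 0.40 overlapped, and E2F5 was lowest at 1.17 ± 0.23. At Nut 1h E2F4 (38.6 ± 1.61) was still highest, and the E2F1 values (18.1 ± 2.09) overlapped those of both E2F3 (18.3 ± 0.87) and E2F8 (17 ± 0.70). At Nut 10h E2F4 (63.1 ± 5.23) was far above E2F3 (8.16 ± 0.37), E2F1 (7.32 ± 1.40) and E2F7 (6.86 ± 0.60). The E2F1 values overlapped both of its neighbours in that order. E2F6 (4.16 ± 0.24), E2F8 (2.64 ± 0.07), E2F2 (1.98 ± 0.35) and E2F5 (1.32 ± 0.09) followed without overlap.

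The makeup of the family changed with these levels. The summed level of the 8 members was 171 and 157 in the controls, 122 and 126 after 1 h, and 99.6 and 91.5 after 10 h. The activators E2F1, E2F2 and E2F3 together made up 37.7% ± 0.54 (SD, n = 2) of it in the controls, 38.9% ± 0.26 after 1 h and 18.3% ± 0.35 after 10 h. Within this group, between the controls and 1 h, E2F1 went from 24.1% ± 1.52 to 14.6% ± 1.29 while E2F3 went from 5.65% ± 0.56 to 14.8% ± 1.09. E2F4 alone made up 47.1% ± 1.07 in the controls, 31.1% ± 0.47 after 1 h and 66% ± 1.5 after 10 h. The atypical members E2F7 and E2F8 took 11.3% ± 1.49, 20.5% ± 0.56 and 9.97% ± 1.16. The levels behind these shares carry no GC-content offset, with which the 1 h log2 fold changes of E2F1, E2F4, E2F7 and E2F8 were -0.16, -0.22, 0.17 and 0.03. Shares sum to the whole, so that a lower share of one member raises the others. They are given as a description, with no test.

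**Figure D4:**
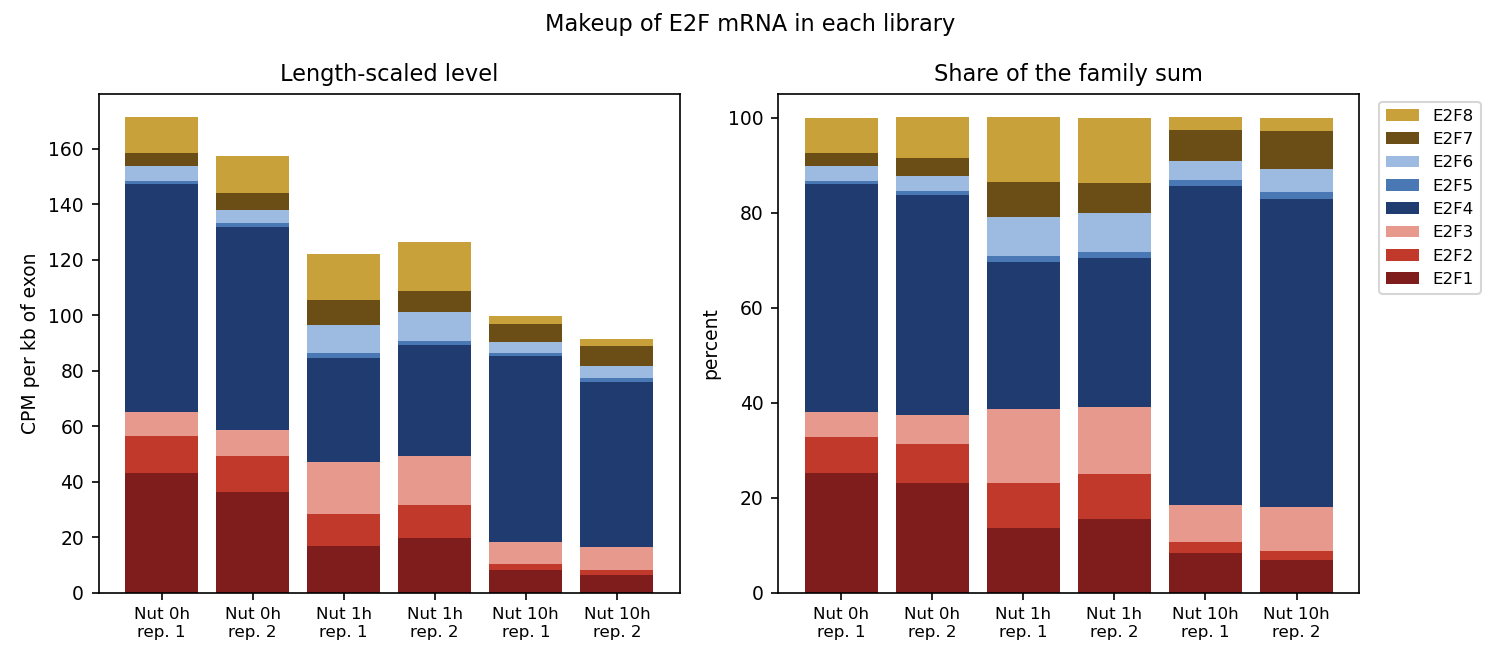
Length-scaled level (left, CPM per kb of exon) and share of the family sum (right, percent) of the 8 E2F genes, stacked, in each of the 6 libraries. The activators (reds) shrink from 38.1% and 37.3% of the sum at Nut 0h to 18.5% and 18% at Nut 10h, where E2F4 (dark blue) makes up 67.1% and 64.9%.

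Ratios within a library, which do not depend on the scaling between libraries, showed the same exchange. The per-length ratio of E2F7 to E2F8 was 0.387 and 0.446 in the controls, 0.541 and 0.452 after 1 h, and 2.4 and 2.81 after 10 h. E2F8 was thus the higher of the atypical members in every Nut 0h and Nut 1h library and the lower one in both Nut 10h libraries. The ratio of E2F1 to E2F4 was 0.526 and 0.497 in the controls, 0.445 and 0.494 after 1 h, and 0.124 and 0.107 after 10 h. For E2F3 to E2F1 it was 0.208 and 0.262, then 1.13 and 0.901, then 0.951 and 1.33. Unlike a scaling factor, the trend on GC content does not cancel in such ratios, and E2F1 (61.6%) and E2F3 (46.3%) differ in GC content.

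The genes whose profile over the 6 libraries came closest to 3 of the members were found by the distance between centred log2 CPM, over the 11575 genes whose mean reached 100 normalized counts. For E2F8 they were MCM10, the replication initiation factor (distance 0.182), the phosphatase CDC25A (0.232) and WDR76 (0.25). For E2F1 they were the mitotic kinase PLK1 (0.396), the CDK inhibitor CDKN2C (0.4) and the helicase PIF1 (0.495). For E2F7 they were CDC42BPA (0.0629), SPATA6 (0.0778) and AHSA2 (0.0799). These profiles carry no GC-content offset, so the trend on GC content at 1 h enters the distances. With the offset the 1 h log2 fold changes were -0.16 for E2F1, -0.27 for PLK1 and -0.43 for CDKN2C. They were 0.03 for E2F8, 0.04 for MCM10 and 0.68 for CDC25A, and 0.17 for E2F7. Profiles were centred but not scaled to the size of their changes, so distances of different members cannot be compared. The distances are a description of these libraries and were not tested.

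Most E2F proteins bind DNA together with a DP protein. TFDP1, the main DP gene, had 9806 and 9115 normalized counts in the controls, 8468 and 8829 after 1 h, and 5720 and 5292 after 10 h. It stood below the controls at both times, further so at 10 h. TFDP1 fell by 0.78 on the log2 scale at 10 h (edgeR adjusted p = 2.15e-05) and was at -0.13 at 1 h (edgeR adjusted p = 0.228), or -0.36 with the GC-content offset (edgeR adjusted p = 0.00108). TFDP2, far less abundant in counts, rose by 0.44 at 1 h (edgeR adjusted p = 0.00149; 0.25 with the offset) and by 0.58 at 10 h (edgeR adjusted p = 0.000645). TFDP3 had 0 counts in all libraries and was not tested.

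The pocket proteins, which bind and silence E2F proteins, did not move as one at 10 h. RBL1 (p107), itself an E2F target, had 790.5 and 833.9 normalized counts in the controls, 1495 and 1471 after 1 h, and 266.8 and 332.2 after 10 h. It was highest at 1 h and lowest at 10 h, with a decrease of 1.44 on the log2 scale at 10 h (edgeR adjusted p = 5.23e-07). RBL2 (p130), the pocket protein of quiescent cells, rose by 0.31 at 10 h (edgeR adjusted p = 0.0377), a change that DESeq2 did not call. RB1 did not pass at 10 h (0.20, edgeR adjusted p = 0.154), but with the GC-content offset it was 0.18 and passed (edgeR adjusted p = 0.0375). All 3 were called higher at 1 h (RBL1 0.87, RB1 0.75, RBL2 0.41), but with the GC-content offset these values were 0.24, -0.03 and -0.04 and only RBL1 was called.

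The MuvB core joins E2F4 and p130 in DREAM and B-MYB (MYBL2) and FOXM1 in the complexes that activate mitotic genes. Of these 7 genes, 6 were called lower and 0 higher at 10 h, beside 14.9% and 14.1% of all tested genes. At an unadjusted p under 0.05 edgeR also gave 0 higher, and DESeq2 called 6 lower and 0 higher. MYBL2 fell by 1.66 (edgeR adjusted p = 1.51e-07) and FOXM1 by 1.54 (edgeR adjusted p = 3.3e-08) on the log2 scale. The core genes LIN52, LIN9, LIN54 and RBBP4 fell less, by 0.77, 0.71, 0.63 and 0.38, and LIN37 did not pass (log2 fold change 0.19, edgeR adjusted p = 0.485). At 1 h RBBP4 (0.63), LIN52 (0.61), LIN54 (0.54) and LIN9 (0.45) were called higher, and MYBL2 (-1.06), LIN37 (-1.05) and FOXM1 (-0.84) lower, beside 34.5% and 32.3% of all tested genes. Once the GC-content offset was applied, 0 of the 7 were called higher and 1 lower at 1 h, beside 23.1% of all tested genes each way, and LIN54 and LIN9 turned to -0.15 and -0.12.

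Upstream of the pocket proteins stand the cyclins, the CDKs and their inhibitors, of which 14 of 15 were tested (CCND2 was too low). At 10 h 10 were called lower and 3 higher, beside 14.9% and 14.1% of all tested genes, with a median log2 fold change of -0.64. Cyclin E2 (CCNE2), a partner of CDK2 and an E2F target, had 415.5 and 435.7 normalized counts in the controls, 965.2 and 991.7 after 1 h, and 57.04 and 87.47 after 10 h. It rose by 1.2 on the log2 scale at 1 h (edgeR adjusted p = 2.41e-06) and fell by 2.55 at 10 h (edgeR adjusted p = 3.94e-08), and its 1 h rise was 0.41 with the GC-content offset (edgeR adjusted p = 0.00302). CDKN2C fell by 1.13 at 1 h, or by 0.43 with the offset, and by 2.24 at 10 h. The rises at 10 h were those of CDKN1A (3.84), CDKN2B (0.76) and the cyclin D1 gene CCND1 (0.45). At 1 h 2 were called higher (CCNE2 and CDK6, 0.57) and 5 lower, of which CDKN1C (-1.98) and CDKN2A (-1.5) were the lowest. For 14 genes these counts are below and near the 34.5% and 32.3% of all tested genes. In the offset fit CDK6 turned to -0.07 (edgeR adjusted p = 0.579), and CDKN1C and CDKN2A stayed lower at -0.81 and -0.79.

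Genes for the turnover of E2F proteins and their regulators were followed as a list of 8. At 10 h 5 were called lower and 0 higher, beside 14.9% and 14.1% of all tested genes, and edgeR had no rise at an unadjusted p under 0.05 and DESeq2 called none. Cyclin F (CCNF), which targets activator E2F proteins for degradation, fell by 1.07 at 1 h (edgeR adjusted p = 4.7e-07) and by 1.93 at 10 h (edgeR adjusted p = 5.02e-09) on the log2 scale. FBXO5 (EMI1), an inhibitor of the anaphase-promoting complex and an E2F target, rose by 0.66 at 1 h (edgeR adjusted p = 3.76e-05) and fell by 2.22 at 10 h (edgeR adjusted p = 4.76e-09). At 1 h 4 were higher and 3 lower, near the 34.5% and 32.3% of all tested genes. The offset fit called 0 higher and 5 lower, beside 23.1% of all tested genes each way, and in it the 1 h value of FBXO5 turned to -0.27 (edgeR adjusted p = 0.0159) while that of CCNF was -0.45. For E2F6, 10 genes of its Polycomb complex gave 5 higher and 3 lower at 1 h and 1 higher (MAX, 0.38) and 3 lower at 10 h, among them CBX3 (-0.63) and PCGF6 (-0.62). All tested genes gave 34.5% and 32.3% at 1 h and 14.1% and 14.9% at 10 h, so that the counts of this small list lie within a few genes of those shares. The offset fit gave 4 higher and 2 lower at 1 h, beside 23.1% of all tested genes each way. In that fit RING1 turned from -0.54 to 0.43 at 1 h (edgeR adjusted p = 7.56e-05).

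The genes that E2F proteins control were read from lists of 50 G1/S and 30 G2/M target genes. At 10 h 49 of the 50 G1/S genes and 30 of the 30 G2/M genes were called lower, beside 14.9% of all tested genes, with median log2 fold changes of -1.40 and -1.62. In both lists 0 genes were called higher, by edgeR at an adjusted p, at an unadjusted p under 0.05 or by DESeq2. The remaining G1/S gene was PCNA, the replication clamp, with a log2 fold change of 0.04 (edgeR adjusted p = 0.764). The lowest G1/S values were those of CDC25A, which activates CDK2 (-2.41), and MCM10 (-2.35), and the lowest G2/M values were those of PLK1 (-2.10) and CENPA, the centromeric histone (-2.05). The log2 fold change of E2F2 (-2.71) was lower than that of every gene in these lists, E2F1 (-2.44) lay close to CDC25A (-2.42 with the offset, where E2F1 was -2.39), and E2F8 (-2.31) lay close to MCM10. Differences between genes were not tested.

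At 1 h the target lists were split. Of the G1/S genes 28 were called higher and 12 lower (median 0.36), and of the G2/M genes 16 higher and 6 lower (median 0.33), beside 34.5% and 32.3% of all tested genes. HELLS, a chromatin remodeller (1.41), and BRCA2, a gene of DNA repair (1.37), were the highest G1/S genes, and the replication licensing factor CDT1 (-1.42) and the thymidine kinase TK1 (-1.08) were the lowest. In the G2/M list the kinetochore gene CENPF (1.16) and HMMR (0.87) were highest and PLK1 (-0.88) and CDC25B (-0.87) lowest. After the offset the G1/S genes gave 25 higher and 8 lower (median 0.16) and the G2/M genes 6 higher and 7 lower, with a median that changed sign to -0.04, beside 23.1% each way. HELLS, BRCA2 and CENPF remained higher (0.75, 0.56 and 0.57) and CDT1 and PLK1 lower (-0.21 and -0.27), while TK1 (0.01), HMMR (0.05) and CDC25B (-0.11) no longer passed. The lists were drawn up with results of these data known, and their counts describe these libraries only.

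**Figure D5:**
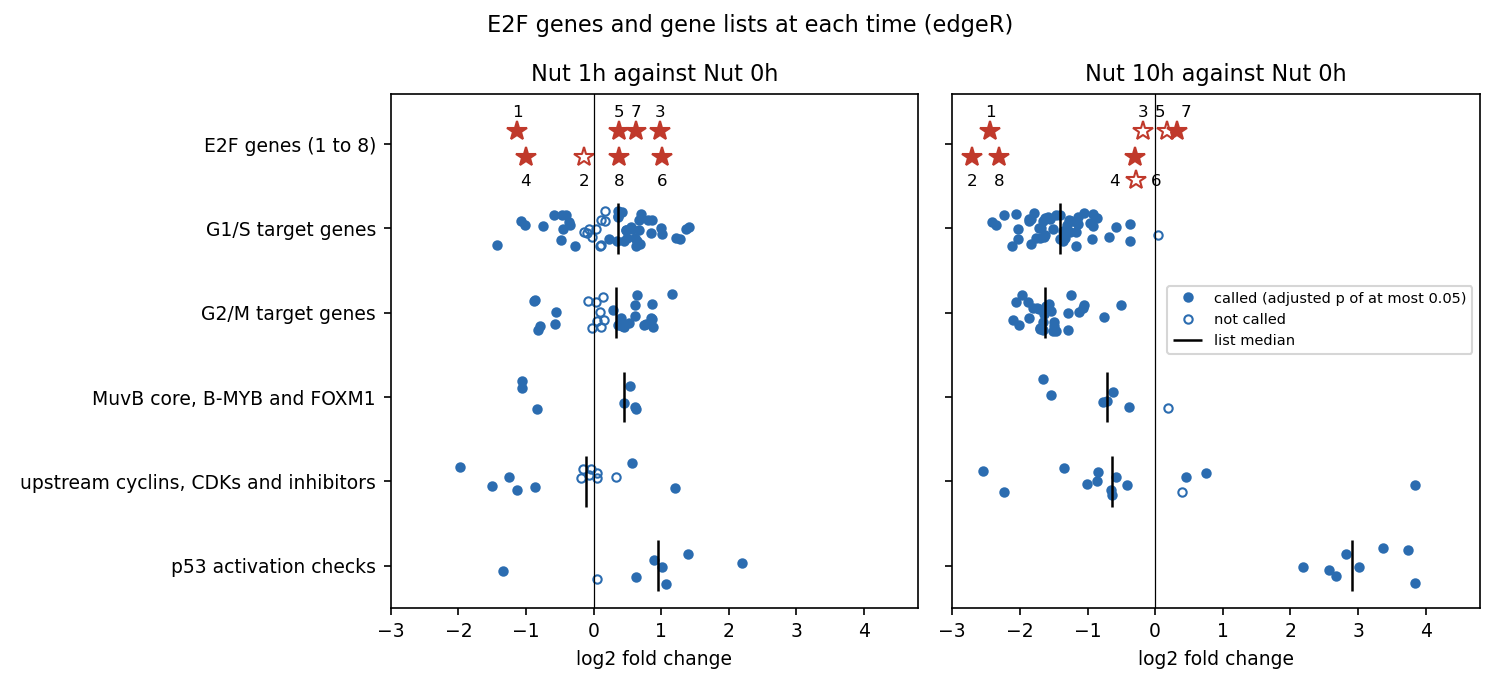
Log2 fold changes (horizontal axes) at Nut 1h (left) and Nut 10h (right) against Nut 0h of the E2F genes (red stars, numbered 1 to 8) and of 5 gene lists (blue circles), filled where edgeR's adjusted p was at most 0.05, with a black line at each list's median and points spread vertically only for legibility. At 10 h 49 of 50 G1/S genes and 30 of 30 G2/M genes lie below 0 and are called, beside E2F1, E2F2 and E2F8, while the 8 p53 target genes are all called higher.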

How the data were processed

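RNA-seq libraries of HCT116 cells (Nut 0h, Nut 1h, Nut 10h, 2 biological replicates each) were grouped by their labels. The authors trimmed reads with Trim Galore 0.6.6, aligned them to GRCh37.p13 with STAR 2.7.0f and counted them per gene with featureCounts (Subread 2.0.0), and the deposited table holds raw counts without normalization. Strand setting and treatment of multimapping reads are not given in the sources used here. The authors' table of their own DESeq2 comparisons (log2 fold changes and p-values) was used only to pair gene IDs with symbols. The members and gene lists were chosen with earlier results of these data known.

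Genes were filtered with filterByExpr (16565 kept), scaled by TMM and tested with edgeR 4.0.16 (limma 3.58.1, R 4.3.3), with condition as the only term, all 6 libraries in the fit and 3 residual degrees of freedom. Genes were called at an adjusted p of at most 0.05. The p-values measure the spread between these libraries. SEs were derived from each F statistic and its log2 fold change. The GC-content offset is a loess trend (span 0.4) of each library's deviation on GC content. Gene models were from GENCODE 44 lifted to GRCh37, promoters from RefSeq. The tests were tried on simulated data in which few genes were changed and the added trend on GC content was linear. Many more genes were called in the real libraries, so these trials do not check the calls made here.

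All members and all DP, pocket protein and MuvB genes were named. For the other lists, the 2 largest rises and falls among called genes averaging 100 normalized counts or more were named, and PCNA and CCND1 were added after their values were seen where a count called for it. A gene that this rule picked is not reported here. For E2F1, E2F7 and E2F8 the 3 nearest profiles were named. Where a symbol had more than 1 row, the row with most counts was used. The alternatives were other scalings, filters, tools, designs and thresholds (DESeq2 1.42.0 among them), the offsets, and each library left out in turn. Figures were drawn with matplotlib.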

Additional observations from a re-analysis of the deposited data

Results flagged for a closer look

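For 7 of the 8 members the change from the shared controls differed between 1 h and 10 h in edgeR's test of Nut 10h against Nut 1h, in which the controls cancel. The difference was -1.31 on the log2 scale for E2F1, -2.58 for E2F2, -1.16 for E2F3, 0.71 for E2F4, -1.30 for E2F6, -0.30 for E2F7 and -2.69 for E2F8 (edgeR adjusted p between 2.72e-10 and 0.0359). Against the controls, E2F3, E2F6, E2F7 and E2F8 were called higher at 1 h, and E2F1 and E2F4 lower. At 10 h E2F1, E2F2, E2F4 and E2F8 were called lower, and E2F7 higher (edgeR adjusted p = 0.04997). Under the offset the 1 h values of E2F1, E2F7 and E2F8 were -0.16, 0.17 and 0.03 and did not pass, while E2F2 passed at 0.50. With the GC-content offset the differences of E2F4 and E2F7 were -0.04 and 0.13 and no longer passed. Of all tested genes 67.9% were called in the same comparison.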

How the results depend on the processing

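Across 19 alternatives per member, the 10 h decreases of E2F1, E2F2 and E2F8 kept their call throughout. With an absolute log2 fold change of at least 1 required, 1 member was higher at 1 h, 0 at 10 h and 0 at 10 h against 1 h, with 3974, 1135 and 4746 genes called in all. An adjusted p of at most 0.01 left 2980 genes and 0 members higher at 10 h. The number of members higher at 10 h, 1 in edgeR, was also 0 with RLE size factors, total counts, TMM without mitochondrial genes, no low-count filter, DESeq2 and only the groups compared. With the GC-content offset 3 members and 6 G2/M genes were higher at 1 h, E2F2 (0.50) and E2F5 (-0.35) reversed at 1 h, and E2F4 (-0.039), E2F5 (0.50) and E2F7 (0.13) reversed at 10 h against 1 h. Scaling by total counts alone put the median of all genes at 0.10 at 1 h.

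Leaving out 1 library at a time gave 3 to 5 members higher and 2 lower at 1 h (3 higher without Nut 1h replicate 2), 0 to 1 higher and 3 to 5 lower at 10 h, and 1 higher and 5 to 6 lower at 10 h against 1 h. Called genes ranged from 8790 to 11438, from 3371 to 5049 and from 9014 to 11512 in the 3 comparisons. E2F5 at 10 h reversed to -0.014 without Nut 0h replicate 1 and was 0.38 without Nut 0h replicate 2. Such fits leave 1 group with a lone library, assumed to vary like the others.

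Same-numbered replicates did not deviate together (r between -0.149 and 0.221), so the numbers were not taken to pair the libraries. With the replicate block, 5 members were higher and 2 lower at 1 h, and 1 higher and 4 lower at 10 h. With the block and the GC-content offset together, 3 members and 6 G2/M genes were higher at 1 h, and the reversed values were 0.50 (E2F2) and -0.34 (E2F5) at 1 h and -0.039 (E2F4), 0.50 (E2F5) and 0.13 (E2F7) at 10 h against 1 h.

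The percent of E2F1, E2F2 and E2F3 in the family was 31.8 in the controls, 34.2 after 1 h and 14.7 after 10 h with the longest transcript as length, and 36.4, 40 and 19.2 without length scaling. Apart from the settings that define them, the cause of these changes was not tested. With 2 libraries a group, small changes such as those of E2F4, E2F6 and E2F7 at 10 h lie at the limit of the test, and that of E2F5 did not pass.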

Other observations

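Genes of cell death linked to E2F1 and p53 were split at both times. Of 11 such genes, 6 were called higher and 3 lower at 1 h, beside 34.5% and 32.3% of all tested genes, and 4 higher and 4 lower at 10 h, beside 14.1% and 14.9%. BBC3 (PUMA), a p53 target that triggers mitochondrial cell death, had 1176 and 934.4 normalized counts in the controls, 520.7 and 556.3 after 1 h, and 4698 and 3891 after 10 h. It was lowest at 1 h and highest at 10 h, a rise of 4.07-fold at the later time (edgeR adjusted p = 2.97e-08). PMAIP1 (NOXA) rose 2.87-fold at 1 h (edgeR adjusted p = 6.15e-08; log2 1.52, or 0.71 with the GC-content offset) and was still higher at 10 h (log2 0.61, edgeR adjusted p = 0.000243). TP73, a p53 relative whose gene E2F1 activates, had 2766 and 2402 normalized counts in the controls, 1195 and 1264 after 1 h, and 958.1 and 685.8 after 10 h. It fell to 0.476 and 0.318 of its control at 1 h and 10 h (edgeR adjusted p = 9.06e-06 and 5.33e-07), and with the GC-content offset its 1 h value was -0.14 (edgeR adjusted p = 0.179). APAF1, the apoptosome scaffold, rose 2.41-fold at 10 h (edgeR adjusted p = 5.31e-06). With the GC-content offset 4 genes of the list were called higher and 0 lower at 1 h, beside 23.1% of all tested genes each way, and BBC3 reversed there from -0.97 to 0.72 (edgeR adjusted p = 1.82e-06).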
